A study of Rattus norvegicus with 20 samples.

Results

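The effect of the cafeteria diet (CAF) on blood cell transcripts was measured over both rat strains together, in 20 arrays of 20 in the series, 1 array per rat. The 10 CAF-fed rats (5 LEW and 5 WKY) were compared with the 10 rats fed standard chow (STD; 5 LEW and 5 WKY), taken by the diet and strain in the sample titles, with strain as an additive term in the model. LEW (LEW/Crl) and WKY (WKY/NCrl) are inbred strains. All rats were males of 15 weeks that had received CAF, a hypercaloric diet rich in fat and carbohydrate, or STD for 7 weeks and were fasted before blood was taken. The question addressed was which transcripts respond to the diet in the same way in both strains. The transcripts are probe sets of the Rat Gene 1.0 ST array, each with a log2 signal in every rat, so a log2 difference of 1 is a doubling.

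Circulating monocytes are phagocytes that sense nutrients, lipids and cytokines in the blood, and they enter adipose tissue along chemokine gradients. Interferons, produced by many cells upon infection or danger signals, switch on a set of antiviral genes in them through STAT and IRF factors, while cellular stress switches on immediate-early and heat shock genes within minutes to hours. The cells are labelled as mononuclear cells of peripheral blood, but according to the methods they are monocytes selected by adherence to plastic. Cd14, the lipopolysaccharide co-receptor that marks monocytes, had a median log2 signal of 12.68 on CAF and 12.74 on STD, and Lyz2, a lysozyme of myeloid cells, of 13.32 on CAF and 13.38 on STD. Markers of other blood cells were also well within the upper part of the range of the arrays, which ran from 3.57 to 14.4. Cd3e of the T cell receptor complex had 12.12 to 12.37 on CAF and 12.04 to 12.48 on STD, Cd79b of the B cell receptor 11.86 to 12.42 on CAF and 11.90 to 12.41 on STD, the platelet chemokine Pf4 12.63 to 13.29 on CAF and 12.63 to 13.43 on STD and the beta-globin gene Hbb 12.62 to 13.84 on CAF and 12.27 to 13.71 on STD. The values are therefore those of a blood cell preparation, in which fewer cells of a type and less RNA per cell cannot be told apart.

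The 20 arrays had medians between 6.83 and 6.90 and correlated with each other at 0.985 to 0.997 across transcripts. Arrays were set apart by heat shock genes. The mean log2 value of 25 heat shock and cochaperone genes, centred on the 20 rats, was 0.54 in 1 CAF-fed LEW rat, and 0.75 and 0.35 in 2 STD-fed LEW rats and 0.38 in 1 STD-fed WKY rat, whereas the next highest rat had -0.01. CAF thus held 1 of these 4 rats and STD 3. Of the 25 heat shock genes, 20 had a log2 fold change below 0 (median -0.11), 1 of them at an unadjusted P under 0.05. Of all 14497 named genes, 7804 were below 0, and 4.91% were lower at that P. The part of these rats in the results below was measured by leaving them out, and their values are given where they move a result.

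**Figure D1:**
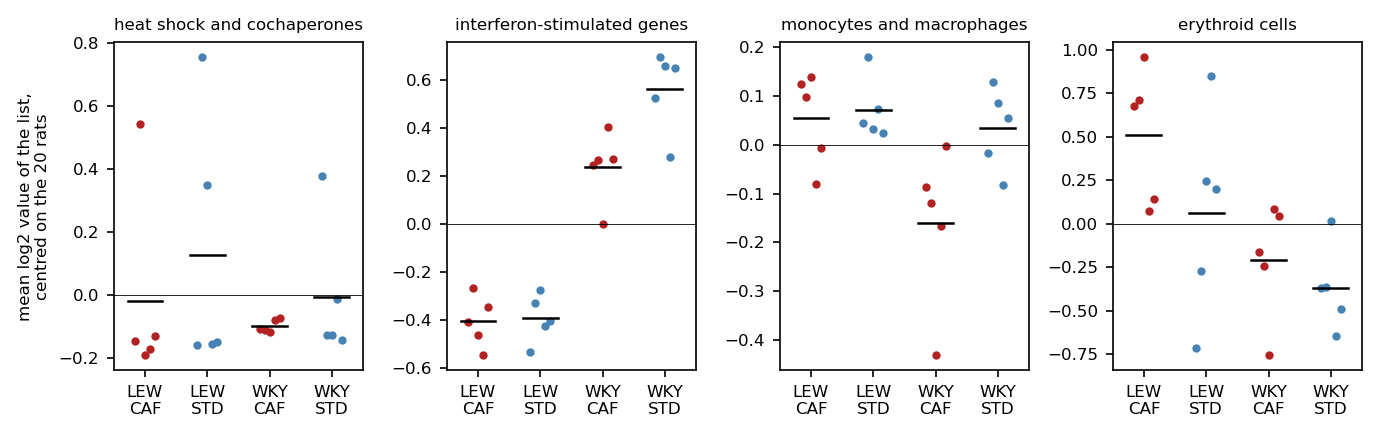
Mean log2 value of the members of 4 gene lists in each rat, centred on the 20 rats (y axis), by strain and diet (x axis, CAF in red left of STD in blue; black bars, group means of 5 rats). The 4 rats of high heat shock score (0.35 to 0.75) are seen in the first panel, the interferon score averages 0.24 on CAF and 0.56 on STD in WKY rats but -0.41 on CAF and -0.39 on STD in LEW rats, and the erythroid score is widely spread within every group.

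No transcript passed an adjusted p of 0.05 for CAF against STD over both strains (0 of 28826, limma, 0% called, smallest adjusted p = 0.150, of a transcript with no gene name in the annotation used here). At an unadjusted P under 0.01 there were 600 transcripts, 2.08% of those tested, where chance alone gives 288. In CAF-fed rats 231 had a higher signal (0.801%) and 369 a lower one (1.28%). At an unadjusted P under 0.05 there were 2343 (8.13%), 977 higher (3.39%) and 1366 lower (4.74%), where chance alone gives 1441. The share of higher transcripts among the 600 was 38.5%, but it was 29.1% with arrays centred to equal medians and 50.3% after quantile normalisation, so the excess of lower transcripts depends on the scaling between arrays. Within 1 strain, with the spread estimated over all 4 groups, 307 transcripts (1.07%) had an unadjusted P under 0.01 in LEW rats and 762 (2.64%) in WKY rats, and 376 (1.3%) did so for the interaction, in which the diet effect of LEW rats is subtracted from that of WKY rats. In LEW rats 126 of them were higher (0.437%) and 181 lower (0.628%), in WKY rats 392 were higher (1.36%) and 370 lower (1.28%), and the interaction was above 0 for 237 (0.822%) and below 0 for 139 (0.482%). No transcript passed an adjusted p of 0.05 in LEW rats (smallest 0.685), in WKY rats (0.187) or for the interaction (0.515).

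**Figure D2:**
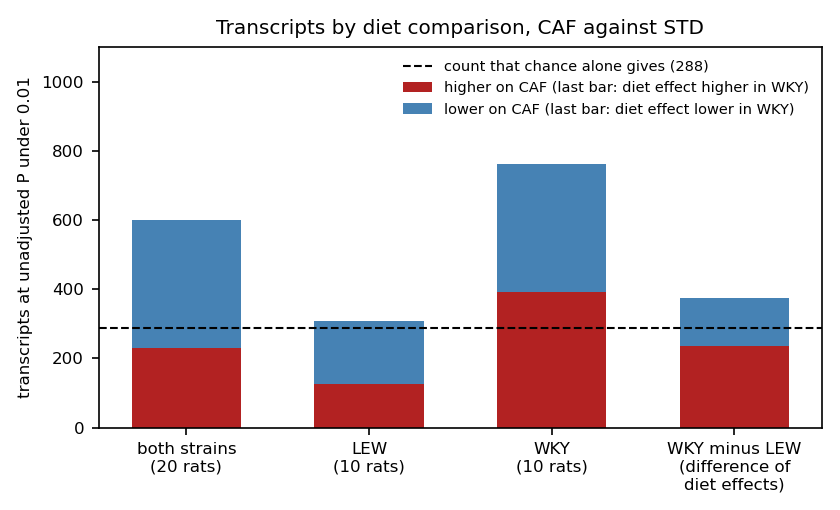
Number of transcripts at an unadjusted P under 0.01 (y axis, of 28826) in each comparison of CAF with STD, higher in red and lower in blue, with the 288 that chance alone gives as a dashed line. The bar over both strains (600) and that of WKY rats (762) stand well above the line, those of LEW rats (307) and of the interaction (376) less so.

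The size of a diet effect shared by the strains was bounded closely over all transcripts, dim ones included. Signals close to background limit what can be seen of a change, and the bounds were not computed for brighter transcripts alone. The standard error of the log2 fold change had a median of 0.05, and the 95% interval lay inside a change of 1.5-fold in either direction for 99.1% of transcripts and inside 1.2-fold for 87.3%. The absolute log2 fold change had a median of 0.04. Only 12 transcripts differed by more than 1.5-fold (8 higher, 4 lower), and 0 of these had an unadjusted P under 0.01. A difference over 1.2-fold with an unadjusted P under 0.01 was found for 85, 20 of them higher and 65 lower in CAF-fed rats. In simulated data of the same size, 98 of 100 transcripts changed by 1.5-fold in both strains and 69 of 100 changed by 1.2-fold passed the adjusted threshold. That simulation had noise independent between transcripts and gave 282 calls, whereas these data gave 0. The adjusted threshold was therefore less strict there, and the rates do not carry over to this comparison.

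The estimated diet effects in LEW and WKY rats, which were computed from separate rats, correlated weakly. Across the 28826 transcripts, which were normalised together, their log2 fold changes correlated at 0.0898, and this value ran from 0.000900 to 0.171 when each rat was left out in turn. Its jackknife SE over rats was 0.183. Noise in effects of 5 against 5 rats lowers such a correlation, and no transcript passed for the interaction. The low value therefore does not show that the strains respond differently. The correlation was 0.105 over the 14413 brighter transcripts, and 52.5% of all transcripts had the same sign in both strains. The log2 fold changes had an SD of 0.0957 in LEW and 0.111 in WKY rats. An unadjusted P under 0.05 in both strains was seen for 117 transcripts with the same sign (0.406%; 38 higher, 0.132%, and 79 lower on CAF, 0.274%) and for 63 with opposite signs (0.219%). All 5 CAF-fed rats lay above all 5 STD-fed rats in both strains for 1 transcript (0.00347%) and below them for 2 (0.00694%), and these 3 had no gene name in the annotation used here.

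**Figure D3:**
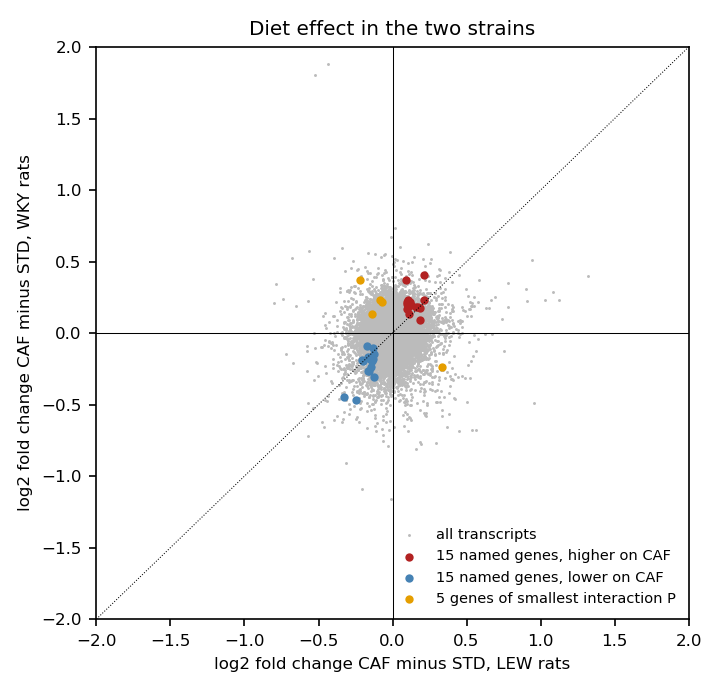
Log2 fold change of CAF over STD in LEW rats (x axis) against that in WKY rats (y axis) for 28826 transcripts (grey; dotted line, equal effects). The 15 named genes higher (red) and the 15 lower on CAF (blue) lie in the quadrants of equal sign, and the 5 genes of smallest interaction P (orange) in those of opposite sign. They were picked on these same values, which favours these positions. The grey cloud shows little slope (r = 0.0898).

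Since no transcript passed, the 15 named genes of smallest unadjusted P in each direction are described by their values. Among the 15 higher in CAF-fed rats (adjusted p 0.217 to 0.362), Chchd10 came first, which encodes a protein of the mitochondrial intermembrane space needed for cristae. Its log2 signals were 9.995, 9.92, 10.06, 9.99 and 9.90 in the CAF-fed LEW rats, against 9.91, 9.85, 9.86, 9.69 and 9.77 in the STD-fed LEW rats. In WKY rats they were 9.97, 10.02, 9.95, 10.04 and 9.99 on CAF, against 9.87, 9.71, 9.85, 9.85 and 9.77 on STD. The CAF-fed WKY rats all lay above the STD-fed ones, while 1 STD-fed LEW rat reached into the CAF-fed range, and the log2 fold change was 0.17 ± 0.03 (SE) (unadjusted P = 3.63e-05, adjusted p = 0.217). Ccr7, the receptor by which T cells and dendritic cells follow CCL19 and CCL21 into lymph nodes, had 12.72, 12.71, 12.75, 12.67 and 12.73 in the CAF-fed LEW rats, against 12.67, 12.60, 12.66, 12.52 and 12.60 in the STD-fed LEW rats. In WKY rats it had 12.47, 12.50, 12.55, 12.57 and 12.46 on CAF, against 12.40, 12.23, 12.30, 12.29 and 12.20 on STD. The diets did not overlap in WKY rats and overlapped in LEW rats (log2 fold change 0.17 ± 0.03 (SE), unadjusted P = 4.69e-05, adjusted p = 0.217). For Ranbp10, a binding partner of the GTPase Ran, all 5 CAF-fed LEW rats exceeded the STD-fed ones, with 10.27, 10.27, 10.42, 10.23 and 10.24 in the CAF-fed LEW rats, against 10.03, 10.07, 10.15, 10.04 and 10.09 in the STD-fed LEW rats. In WKY rats the values were 10.03, 9.98, 9.88, 10.15 and 10.03 on CAF, against 9.83, 9.88, 9.93, 9.54 and 9.75 on STD, where the groups overlapped (0.22 ± 0.04 (SE), unadjusted P = 7.34e-05, adjusted p = 0.217).

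3 of the other named genes act in protein folding. Hspbp1, an exchange factor of Hsp70, had 8.70 ± 0.08 on CAF and 8.52 ± 0.10 on STD in LEW rats, and 8.64 ± 0.02 on CAF and 8.46 ± 0.14 on STD in WKY rats (SD, n = 5 each; log2 fold change 0.18, adjusted p = 0.277). Bag6, a chaperone of membrane proteins, differed by 0.12, adjusted p = 0.277, and Pfdn6, a subunit of prefoldin, by 0.16, adjusted p = 0.33. The chromatin proteins Cxxc1, which recruits histone H3 lysine methylation to CpG islands, and Bcl7c, a subunit of the SWI/SNF remodelling complex, were higher by 0.17 and 0.14. Of genes of RNA and ribosome biology, Pym1, which takes exon junction complexes off mRNAs, was higher by 0.18 and the nucleolar protein gene Lyar by 0.13. The calcium/calmodulin-dependent kinase gene Camk2a had the largest log2 fold change of the 15, 0.31 ± 0.08 (SE), with 0.22 in LEW and 0.40 in WKY rats. P2rx7, the ATP-gated channel that can start inflammasome activation, had 6.30, 6.39, 6.43, 6.42 and 6.398 in the CAF-fed LEW rats, against 6.34, 6.22, 6.34, 6.27 and 6.28 in the STD-fed LEW rats. In WKY rats, whose signal was higher on either diet, it had 7.55, 7.53, 7.54, 7.83 and 7.93 on CAF, against 7.47, 7.34, 7.34, 7.07 and 7.30 on STD. The groups did not overlap in WKY rats, and the log2 fold changes were 0.09 in LEW and 0.37 in WKY rats (interaction unadjusted P = 0.0192). The potassium-chloride cotransporter gene Slc12a7 (0.16), Fchsd1 (0.15) and Ccser1 (0.14) completed the 15.

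**Figure D4:**
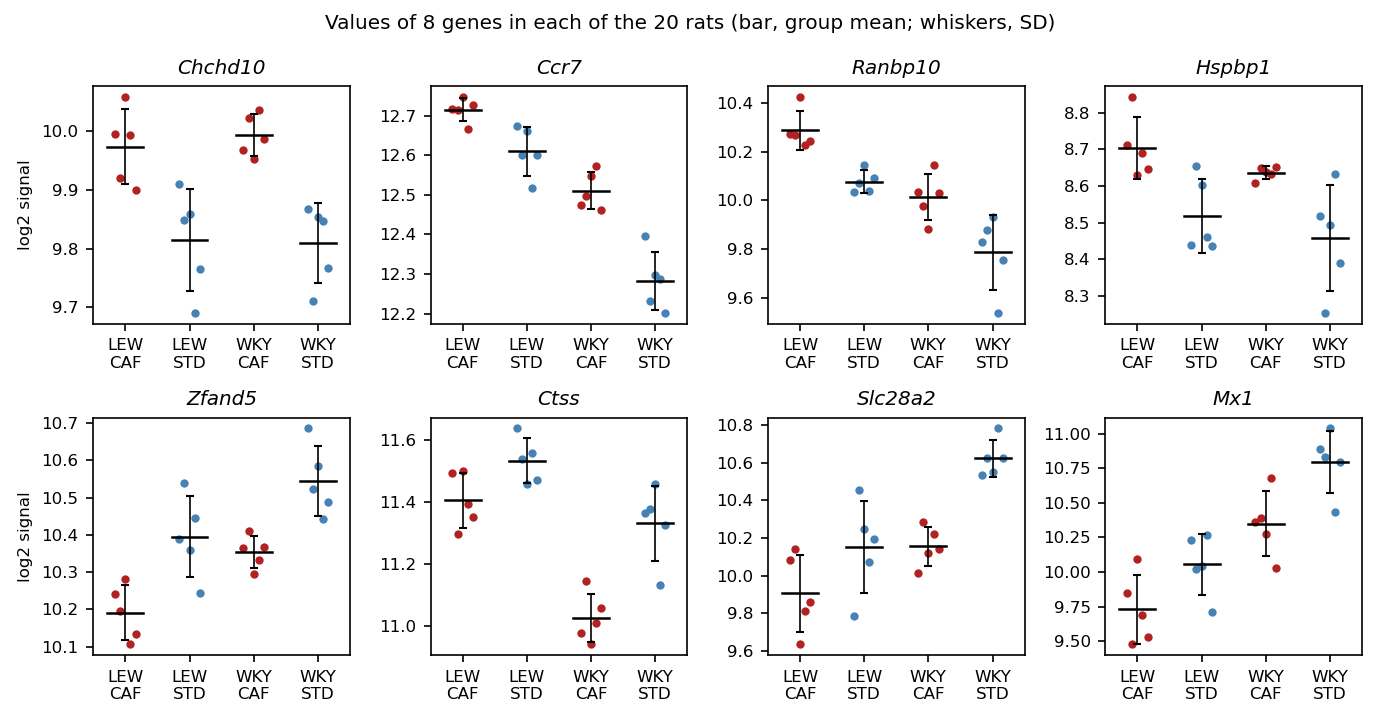
Log2 signal (y axis, a separate range for each gene) of 4 genes higher (upper row) and 4 lower on CAF (lower row) in each rat, by strain and diet (x axis, CAF in red left of STD in blue). Black bars are group means and whiskers SDs of 5 rats, and most groups of 1 strain overlap by 1 or more rats.

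Among the 15 lower in CAF-fed rats (adjusted p 0.217 to 0.284), Zfand5, which binds ubiquitin and the proteasome, had 10.24, 10.20, 10.28, 10.11 and 10.13 in the CAF-fed LEW rats, against 10.39, 10.54, 10.36, 10.44 and 10.24 in the STD-fed LEW rats. WKY rats had 10.37, 10.41, 10.30, 10.33 and 10.37 on CAF, against 10.69, 10.52, 10.58, 10.44 and 10.49 on STD. All 10 CAF-fed rats lay below the STD mean of their own strain, and the log2 fold change was -0.20 ± 0.04 (SE) (unadjusted P = 4.52e-05, adjusted p = 0.217). Ctss encodes cathepsin S, the protease of antigen-presenting cells that trims the invariant chain of MHC class II. Its signals were 11.49, 11.30, 11.50, 11.39 and 11.35 in the CAF-fed LEW rats, against 11.64, 11.54, 11.46, 11.56 and 11.47 in the STD-fed LEW rats. In WKY rats they were 10.98, 11.14, 10.94, 11.01 and 11.06 on CAF, against 11.36, 11.38, 11.46, 11.13 and 11.33 on STD. The groups overlapped in each strain, by 1 STD-fed rat in WKY, and the log2 fold change was -0.22 ± 0.05 (SE) (unadjusted P = 0.000118, adjusted p = 0.217), with -0.13 in LEW and -0.31 in WKY rats. Slc28a2, a sodium-coupled nucleoside transporter, had 10.08, 10.14, 9.64, 9.81 and 9.86 in the CAF-fed LEW rats, against 9.79, 10.46, 10.25, 10.07 and 10.20 in the STD-fed LEW rats. In WKY rats, where the diets did not overlap, it had 10.01, 10.28, 10.12, 10.22 and 10.14 on CAF, against 10.53, 10.63, 10.55, 10.78 and 10.62 on STD. The log2 fold change was -0.36 ± 0.08 (SE) (unadjusted P = 0.000128, adjusted p = 0.217). Rragc, a Rag GTPase that brings mTORC1 to the lysosome when amino acids are present, averaged 9.79 ± 0.10 on CAF and 9.95 ± 0.07 on STD in LEW rats, and 10.07 ± 0.14 on CAF and 10.33 ± 0.07 on STD in WKY rats (SD, n = 5 each; log2 fold change -0.21, adjusted p = 0.217).

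The mRNA export adaptor gene Alyref (-0.17), the chromatin reader gene Ing1 (-0.20), the PHD finger gene Phf23 (-0.16), Babam2 of the BRCA1-A complex (-0.13), the ubiquitin ligase gene Rlim (-0.17) and the Schlafen gene Slfn9 (-0.22) were lower as well, each in both strains. Olr703 and Or7g26, which encode olfactory receptors, Nutm1, a gene of germ cells, and Apob, the apolipoprotein of liver and gut, were also among the 15. Their signals were dim, with means over the 20 rats of 4.45, 4.54, 5.80 and 5.58 where array medians were 6.83 to 6.90. Larger differences, looked up after the values were seen, came with larger standard errors. Fcgr3a, the low-affinity Fc receptor of monocytes and NK cells, had 8.03, 7.46, 7.89, 7.61 and 7.56 in the CAF-fed LEW rats, against 7.70, 8.34, 7.96, 8.98 and 8.26 in the STD-fed LEW rats. The WKY rats had 9.36, 9.47, 8.58, 9.05 and 9.12 on CAF, against 9.89, 9.87, 9.88, 9.26 and 9.29 on STD. The diets overlapped in both strains, and the log2 fold change was -0.53 ± 0.14 (SE) (unadjusted P = 0.00132, adjusted p = 0.369). The phospholipase gene Pla2g2d differed by -0.56, adjusted p = 0.457, the stress-responsive kinase gene Plk3 by -0.35, adjusted p = 0.368 and the endolysosomal GTPase gene Rab7b by -0.47, adjusted p = 0.44.

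Of the gene lists, the interferon-stimulated genes held the largest share of members at an unadjusted P under 0.05. Of 31 measured, 14 were lower in CAF-fed rats (45.2%) and 0 higher, where 4.91% of all 14497 named genes were lower and 3.39% higher, and 0 of the 31 passed an adjusted p of 0.05 (smallest 0.277). Their median log2 fold change was -0.20, against -0.0056 for all named genes. It was -0.06 in LEW and -0.39 in WKY rats. In LEW rats 1 member was lower at an unadjusted P under 0.05 (2.95% of all named genes), in WKY rats 17 were (5.21%), and 7 had an interaction P under 0.05 (6.39% in either direction). Mx1, a GTPase that blocks viral ribonucleoproteins, had 9.85, 9.48, 10.10, 9.69 and 9.53 in the CAF-fed LEW rats, against 10.23, 10.02, 10.05, 10.27 and 9.71 in the STD-fed LEW rats. In WKY rats it had 10.36, 10.39, 10.28, 10.68 and 10.03 on CAF, against 10.89, 10.83, 11.04, 10.44 and 10.79 on STD. In each strain the diets overlapped, and the log2 fold change was -0.39 ± 0.09 (SE) (unadjusted P = 0.000531, adjusted p = 0.277). Mx1 differed by -0.33 in LEW and -0.45 in WKY rats (interaction unadjusted P = 0.533). Oas2, a sensor of double-stranded RNA, differed by -0.06 in LEW and -0.39 in WKY rats (interaction unadjusted P = 0.00688), and its relative Oasl2 by -0.11 in LEW and -0.42 in WKY rats (interaction unadjusted P = 0.0564). Ifih1, the RNA helicase MDA5, had 9.04, 9.16, 8.58, 8.69 and 9.37 in the CAF-fed LEW rats, against 9.05, 9.60, 9.42, 8.76 and 9.15 in the STD-fed LEW rats. WKY rats had 10.03, 10.35, 10.02, 10.02 and 9.89 on CAF, against 10.58, 10.51, 10.47, 10.35 and 10.38 on STD, and the highest CAF-fed rat only just reached the lowest STD-fed one. Its log2 fold change was -0.31 ± 0.10 (SE) (unadjusted P = 0.00614, adjusted p = 0.457). In WKY rats the mean scores of monocyte genes (-0.16 on CAF, 0.03 on STD) and NK cell genes (0.28 on CAF, 0.59 on STD) were lower on CAF as well. In LEW rats they were 0.06 on CAF and 0.07 on STD for monocyte genes, and -0.45 and -0.41 for NK cell genes. Rat by rat the NK score did not follow the interferon score. Among CAF-fed WKY rats, rat 3 had the highest NK and lowest interferon score, and rat 4 the reverse. The mean of the 31 monocyte genes, centred on the 20 rats, ran from -0.43 to -0.0028 in the CAF-fed and from -0.08 to 0.13 in the STD-fed WKY rats, and that of the 13 NK cell genes from 0.21 to 0.40 in the CAF-fed and from 0.26 to 0.81 in the STD-fed WKY rats. With the monocyte score as a covariate 6 in place of 14 interferon-stimulated genes were lower. That score is itself a mean of transcripts and was lower on CAF in WKY rats. This fall in the count therefore cannot tell fewer monocytes from less RNA per cell. The part of the NK score was not tested.

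Promoters of Ifih1, Oasl2 and Mx1 (Oas2 had no entry) are shown for the element to which IRF factors and ISGF3 bind, searched as GAAA repeated after any 2 bases or, for the other strand, TTTC repeated after any 2 bases, in RefSeq sequence of build GRCr8 from 250 bases before to 50 after the start of the gene. The element was present in 15 of the 23 interferon-stimulated genes with an entry (65.2%), against 1312 of all 33469 promoters (3.92%), and is printed in capitals. Ifih1 (chr3:67683919-67684218, minus strand) and Oasl2 (chr12:47383136-47383435, minus strand) held 1 match each, and Mx1 (chr11:50294557-50294856, minus strand) held none in this window.
Ifih1: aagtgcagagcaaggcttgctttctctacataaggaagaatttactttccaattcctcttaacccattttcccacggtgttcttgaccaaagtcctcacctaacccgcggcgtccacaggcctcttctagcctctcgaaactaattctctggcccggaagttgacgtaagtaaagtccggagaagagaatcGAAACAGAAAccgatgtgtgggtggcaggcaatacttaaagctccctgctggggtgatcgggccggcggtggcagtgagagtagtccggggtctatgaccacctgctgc
Oasl2: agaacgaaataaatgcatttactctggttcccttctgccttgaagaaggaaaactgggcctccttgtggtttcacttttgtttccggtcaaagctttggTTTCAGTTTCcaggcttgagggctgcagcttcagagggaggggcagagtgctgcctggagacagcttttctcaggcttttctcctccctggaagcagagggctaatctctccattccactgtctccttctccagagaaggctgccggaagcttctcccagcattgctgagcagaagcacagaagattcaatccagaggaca
Mx1: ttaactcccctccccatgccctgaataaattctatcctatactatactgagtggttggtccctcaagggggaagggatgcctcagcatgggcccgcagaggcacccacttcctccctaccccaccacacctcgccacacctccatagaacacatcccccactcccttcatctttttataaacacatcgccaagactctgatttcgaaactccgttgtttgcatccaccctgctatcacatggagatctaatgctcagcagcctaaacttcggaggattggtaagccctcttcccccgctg

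Immediate-early genes, which are induced without new protein synthesis, followed with 7 of 23 lower in CAF-fed rats (30.4%), 0 higher and a median of -0.12 (LEW -0.05, WKY -0.26). Within LEW rats 0 of the 23 were lower at an unadjusted P under 0.05 (2.95% of all named genes), and within WKY rats 8 were (5.21%). In both strains 14 were below 0. As above, 4.91% of all named genes were lower and 3.39% higher, which also holds beside the other lists of this paragraph. Atf3, a stress-induced transcription factor, had 9.03, 9.9998, 9.26, 9.47 and 10.20 in the CAF-fed LEW rats, against 9.66, 10.97, 10.10, 9.29 and 9.91 in the STD-fed LEW rats. The WKY rats had 10.41, 10.27, 10.11, 10.02 and 10.17 on CAF, against 11.09, 10.74, 10.65, 10.84 and 10.69 on STD. All 5 CAF-fed WKY rats lay below the STD-fed ones, whereas LEW rats overlapped widely (log2 fold change -0.50 ± 0.17 (SE), unadjusted P = 0.00657, adjusted p = 0.46). The transcription factor genes Nr4a1 and Egr3 differed by -0.19, adjusted p = 0.52 and -0.41, adjusted p = 0.521, and Ier5 by -0.17, adjusted p = 0.509. With the monocyte score as a covariate, 2 members in place of 7 were lower. The limit given above for that covariate holds here too. Of 24 inflammatory mediators, 3 were lower (12.5%), namely Ifng (-0.65, adjusted p = 0.507), Ccl3 (-0.12, adjusted p = 0.554) and Tnf (-0.27, adjusted p = 0.573). Ifng, the type II interferon of NK and T cells, differed by -0.21 in LEW and -1.09 in WKY rats (interaction unadjusted P = 0.0621). In WKY rats it had 6.95, 6.47, 6.55, 6.41 and 6.67 on CAF, against 6.92, 7.43, 6.91, 9.28 and 7.98 on STD, where 1 STD-fed rat was far above the others, and without that rat the log2 fold change over both strains was -0.44. Of the 25 genes of the unfolded protein and integrated stress response, 3 were lower (12%), namely Ddit3 (-0.24, adjusted p = 0.401), the chaperone-complex gene Sdf2l1 (-0.24, adjusted p = 0.436) and Atf4 (-0.08, adjusted p = 0.601). In the Nrf2 antioxidant response, 3 of 20 were lower (15%), among them Nfe2l2 itself (-0.17, adjusted p = 0.447) and the sulfiredoxin gene Srxn1 (-0.21, adjusted p = 0.457), and 1 was higher (5%), Gsta4 (0.21, adjusted p = 0.604). Without the 4 rats of high heat shock score, the counts of the interferon-stimulated and immediate-early lists stayed within 1.5 times those of all rats.

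**Figure D5:**
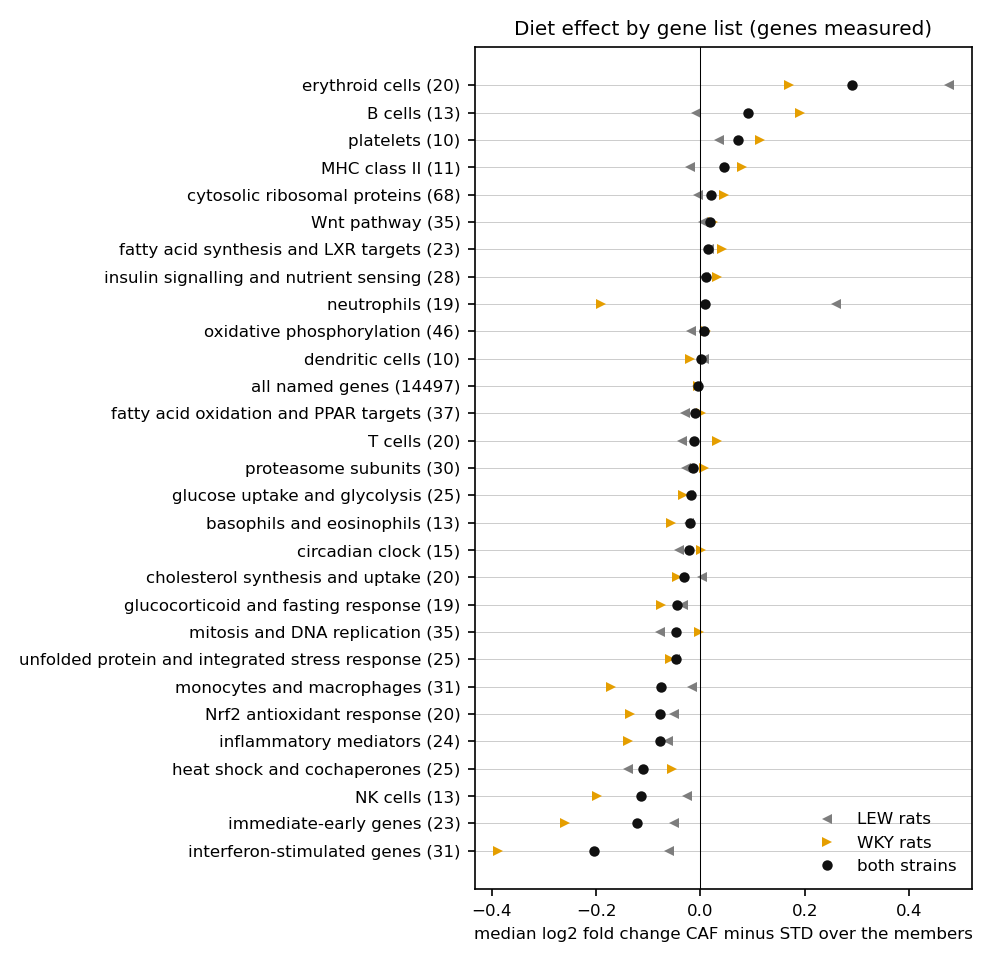
Median log2 fold change of CAF over STD (x axis) over the measured members of each gene list (y axis, with their number), in both strains (black circles), in LEW (grey) and in WKY rats (orange). Interferon-stimulated and immediate-early genes lie lowest (medians -0.20 and -0.12), with WKY rats below LEW rats, erythroid genes highest (0.29), and neutrophil genes lie on opposite sides of 0 in the 2 strains.

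Lists that mark cell types were compared in the same way. Of all 14497 named genes, 6693 were above 0 and 7804 below, and 3.39% were higher and 4.91% lower at an unadjusted P under 0.05. Members of 1 list can move together, so their counts are not those of independent genes. Of 31 monocyte and macrophage genes, 29 had a log2 fold change below 0 (median -0.08, LEW -0.02, WKY -0.17), and 6 were lower at an unadjusted P under 0.05 (19.4%), but 3 without STD-fed LEW rat 2, without STD-fed WKY rat 1, 2 or 3, or without CAF-fed WKY rat 3 or 4. Besides Ctss, these included the pore-forming protein gene Mpeg1 (-0.28, adjusted p = 0.477), Ms4a7 (-0.11, adjusted p = 0.554) and the lectin gene Clec4a3 (-0.35, adjusted p = 0.59). In both strains 14 of the 31 were below 0 (4254 of all 14497 named genes). Within LEW rats 2 were lower at an unadjusted P under 0.05 (2.95% of all named genes), and within WKY rats 10 were (5.21%). An interaction P under 0.05 was held by 6 (6.39% of all named genes). All 13 NK cell genes were below 0 (median -0.11, LEW -0.03, WKY -0.20), with 2 at an unadjusted P under 0.05 (15.4%), the granzyme gene Gzma (-0.41, adjusted p = 0.465; -0.36 in LEW and -0.46 in WKY rats) and the chemokine gene Xcl1 (-0.59, adjusted p = 0.587). Xcl1 differed by -0.01 in LEW and -1.16 in WKY rats (interaction unadjusted P = 0.0265). Of 13 genes of basophils and eosinophils, 3 were lower (23.1%), the mast cell protease gene Cpa3 (-0.15, adjusted p = 0.477), the eotaxin receptor gene Ccr3 (-0.14, adjusted p = 0.528) and the Fc epsilon receptor gene Ms4a2 (-0.08, adjusted p = 0.59). These 3 were dim, with means over the 20 rats of 5.40, 4.98 and 5.07, and the list median was -0.02. Of 20 T cell genes, 8 were above 0 and 12 below (median -0.01, LEW -0.04, WKY 0.03), and 2 were higher at an unadjusted P under 0.05 (10%), Ccr7 and the T cell receptor zeta chain gene Cd247 (0.12, adjusted p = 0.587; 0.02 in LEW and 0.23 in WKY rats). Of 13 B cell genes, 9 were above 0 and 4 below (median 0.09, LEW -0.0084, WKY 0.19), and 2 were higher (15.4%), the B-lineage gene Vpreb3 (0.29, adjusted p = 0.465) and the coactivator gene Pou2af1 (0.14, adjusted p = 0.554; 0.12 in LEW and 0.17 in WKY rats). Vpreb3 differed by 0.07 in LEW and 0.51 in WKY rats (interaction unadjusted P = 0.0186). Of 10 dendritic cell genes, 5 were above 0 and 5 below (median 0.00016, LEW 0.0063, WKY -0.02), and 1 was higher (10%), Tcf4 (0.16, adjusted p = 0.477; 0.07 in LEW and 0.25 in WKY rats). Of 11 MHC class II genes, 7 were above 0 and 4 below (median 0.05, LEW -0.02, WKY 0.08), and 1 was higher (9.09%), RT1-Db1 (0.10, adjusted p = 0.607; 0.02 in LEW and 0.18 in WKY rats). Of 19 neutrophil genes, 0 had an unadjusted P under 0.05, and their median was 0.26 in LEW and -0.19 in WKY rats.

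Erythroid genes had the largest median, 0.29 (LEW 0.48, WKY 0.17), and 16 of 20 were above 0, with 4 higher at an unadjusted P under 0.05 (20%). Of all 14497 named genes, 6693 were above 0 and 3.39% were higher at that P. Within LEW rats 7 of the 20 were higher at that P (264 of all 14497 named genes), and within WKY rats 0 were (720 of all). Hemgn, a nuclear protein of erythroid progenitors, had 9.56, 9.57, 9.85, 8.22 and 8.42 in the CAF-fed LEW rats, against 7.23, 7.68, 8.71, 9.197 and 8.31 in the STD-fed LEW rats. In WKY rats it had 8.13, 7.99, 7.21, 8.48 and 8.55 on CAF, against 7.78, 7.55, 8.50, 7.36 and 7.65 on STD. Rats differed by more than 1 log2 unit within every group, and the diets overlapped in both strains (log2 fold change 0.60 ± 0.26 (SE), unadjusted P = 0.0319, adjusted p = 0.573). The erythroid transcription factor gene Klf1 (0.15, adjusted p = 0.574), the membrane skeleton gene Epb42 (0.38, adjusted p = 0.587) and the glycophorin gene Gypc (0.13, adjusted p = 0.553) were the others. The count of 4 depended on single rats. It was 13 without STD-fed LEW rat 4 or CAF-fed WKY rat 3, 12 without CAF-fed LEW rat 4, 11 without STD-fed WKY rat 3, 2 without STD-fed WKY rat 5 or CAF-fed WKY rat 5, and 1 without CAF-fed LEW rat 1, 2 or 3, CAF-fed WKY rat 4 or STD-fed LEW rat 1 or 2. It was also 1 without the 4 rats of high heat shock score. All 10 platelet genes were above 0 (median 0.07), and 2 were higher (20%), the chemokine gene Ppbp (0.23, adjusted p = 0.569) and Nrgn (0.10, adjusted p = 0.574). Without 1 rat the platelet count was 7 for STD-fed LEW rat 4, 1 for STD-fed LEW rat 1, STD-fed WKY rats 1, 2 and 5 and CAF-fed LEW rats 1 and 4, and 0 for STD-fed LEW rats 2 and 3 and CAF-fed WKY rats 4 and 5. It was 0 without the 4 rats of high heat shock score.

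Metabolic lists held few genes at an unadjusted P under 0.05. Of all 14497 named genes, 3.39% were higher and 4.91% lower at that P. A list with a share near these differs little from any set of genes in the comparison over both strains, where opposite effects in the strains cancel. In fatty acid synthesis and LXR targets, 2 of 23 were higher (8.7%), Acly, which makes cytosolic acetyl-CoA (0.11, adjusted p = 0.499), and the desaturase gene Fads2 (0.20, adjusted p = 0.555). Fads2 differed by 0.02 in LEW and 0.39 in WKY rats (interaction unadjusted P = 0.0232). Within LEW rats 0 of these 23 were higher at an unadjusted P under 0.05 (264 of all 14497 named genes), and within WKY rats 5 were (720 of all). An interaction P under 0.05 was held by 5 of these 23 and by 5 of 28 insulin signalling genes, but by 1 of 20 cholesterol genes (6.39% of all named genes). In fatty acid oxidation and PPAR targets, 3 of 37 were lower (8.11%), the beta-oxidation gene Hadh (-0.10, adjusted p = 0.464), Pparg (-0.32, adjusted p = 0.57) and the fatty acid translocase gene Cd36 (-0.16, adjusted p = 0.601). Of 20 genes of cholesterol synthesis and uptake, 1 was lower (5%), Acat2 (-0.14, adjusted p = 0.496). In glucose uptake and glycolysis 2 of 25 were lower (8%), the glucose transporter gene Slc2a1 (-0.21, adjusted p = 0.496) and the hexokinase gene Hk3 (-0.19, adjusted p = 0.568). Of 28 genes of insulin signalling and nutrient sensing, the insulin receptor gene Insr was higher (0.14, adjusted p = 0.483) and Pik3r1 lower (-0.07, adjusted p = 0.573), which is 3.57% each way. Txnip, which restrains glucose uptake, was the 1 lower of 19 glucocorticoid and fasting genes (5.26%; -0.27, adjusted p = 0.401). Of 15 clock genes, Noct (-0.39, adjusted p = 0.468) and Bhlhe41 (-0.15, adjusted p = 0.574) were lower (13.3%). In the Wnt pathway 1 of 35 was higher, Nkd1 (0.10, adjusted p = 0.509), and 1 lower, Fzd6 (-0.11, adjusted p = 0.483), which is 2.86% each way.

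Lists of basic cell functions are set beside the same shares of all named genes, 3.39% higher and 4.91% lower. Of 68 ribosomal protein genes, 5 were higher (7.35%), among them Rps12 (0.10, adjusted p = 0.481) and Rps24 (0.13, adjusted p = 0.568). A further 2 were lower (2.94%), Rpl6 (-0.09, adjusted p = 0.499) and Rpl23 (-0.11, adjusted p = 0.54). Of 46 genes of oxidative phosphorylation, 5 were lower (10.9%) and 1 higher (2.17%), the lower ones including Uqcrc2 (-0.11, adjusted p = 0.447) and Uqcrb (-0.11, adjusted p = 0.562) of complex III and Ndufc2 (-0.12, adjusted p = 0.493) and Ndufb3 (-0.12, adjusted p = 0.573) of complex I. Their list median was 0.01. Of 30 proteasome genes, Psmd3 was higher (3.33%; 0.08, adjusted p = 0.591), and of the heat shock genes, the collagen chaperone gene Serpinh1 was lower (-0.10, adjusted p = 0.554; 4% of 25). In mitosis and DNA replication, 5 of 35 were lower (14.3%), among them the polymerase clamp gene Pcna (-0.19, adjusted p = 0.369), the ribonucleotide reductase gene Rrm1 (-0.10, adjusted p = 0.539), Aurka (-0.10, adjusted p = 0.554) and Cdc6 (-0.14, adjusted p = 0.554). This count was 9 without STD-fed LEW rat 1, 8 without STD-fed WKY rat 4, 3 without STD-fed LEW rat 2 or STD-fed WKY rat 1, and 2 without the 4 rats of high heat shock score.

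The 5 genes of smallest interaction P had fitted diet effects of opposite sign in the strains, which picking them by that P favours. Krtap5-8, a keratin-associated protein gene, differed by 0.34 in LEW and -0.24 in WKY rats (interaction unadjusted P = 3.19e-05). The nuclear receptor coactivator gene Ncoa3 differed by -0.08 in LEW and 0.23 in WKY rats, Grhl3, a transcription factor gene of epithelia, by -0.22 in LEW and 0.37 in WKY rats, the kinase gene Hipk1 by -0.07 in LEW and 0.22 in WKY rats and Abhd8 by -0.14 in LEW and 0.13 in WKY rats. None of these passed the adjusted threshold, the smallest adjusted interaction p being 0.515. Acss2, which turns acetate into acetyl-CoA in the cytosol, had 8.63, 9.30, 8.61, 8.60 and 8.62 in the CAF-fed LEW rats, against 8.80, 9.24, 9.14, 8.72 and 8.84 in the STD-fed LEW rats. WKY rats had 9.46, 9.33, 9.24, 9.29 and 9.46 on CAF, against 9.40, 9.09, 9.09, 8.92 and 9.19 on STD. In LEW rats 1 CAF-fed rat, the one of heat shock score 0.54, stood above the other 4, and in both strains the diets overlapped. The log2 fold change was 0.01 ± 0.10 (SE) over both strains (unadjusted P = 0.891, adjusted p = 0.984), with -0.19 in LEW and 0.22 in WKY rats (interaction unadjusted P = 0.033), and its sign over both strains turned under some settings. Ccl2, the chemokine MCP-1 that draws monocytes into tissue, averaged 12.85 ± 0.44 on CAF and 13.09 ± 0.25 on STD in LEW rats, and 13.48 ± 0.11 on CAF and 13.54 ± 0.12 on STD in WKY rats (SD, n = 5 each), and its log2 fold change was -0.15 ± 0.11 (SE) (unadjusted P = 0.179, adjusted p = 0.756).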

How the data were processed

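Blood cell RNA of 20 rats was measured on 20 arrays of the Rat Gene 1.0 ST type. The authors deposited 1 table of log2 values per probe set, normalised between arrays, described in the methods as RMA values while the submitters' processing notes name MAS5, with no version given. The values were used as deposited, with no filter and no array left out, and precision is limited by the number of arrays. The labels call same-group rats biological replicates.

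Groups were taken from the sample titles. The model was fitted in R 4.3.3 by limma 3.58.1 (lmFit and eBayes with no trend; residual degrees of freedom 17, prior 3.70) on all 28826 transcripts, with diet and strain as additive terms, and with 1 mean per group for the diet effect in each strain and the interaction. P-values were adjusted by Benjamini-Hochberg over all transcripts, and a call was an adjusted p under 0.05. The procedure was tested on simulated data of 28826 transcripts, in which 15 of 282 calls were false. Gene names came from the platform annotation: 15209 transcripts had 1 symbol (14497 genes, of which the probe set of highest mean was used in lists), 306 had several and 13311 were not listed. 15178 of the 15209 were found in the RefSeq table by gene ID.

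Named genes were the 15 of smallest unadjusted P under 0.01 in each direction where none passed the adjusted threshold, up to 4 members of each list of smallest P (those under 0.05 are given), the 5 of smallest interaction P, and Acss2 and Ccl2. Fcgr3a, Pla2g2d, Plk3 and Rab7b were chosen after their values were seen. The comparison, the 28 lists and the tests were chosen with earlier results of these data known. Lists are described by counts and medians and were not tested. Alternatives covered the model, the scaling between arrays, a filter on dim probe sets, a trend, array weights, replicate blocks, covariates for cell type and heat shock scores, single strains and each rat left out. Leaving out the 4 rats of high heat shock score was chosen after seeing the data.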

Additional observations from a re-analysis of the deposited data

Results flagged for a closer look

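In 536 groups of 5 rats (106 genes and the scores of 28 lists, 4 groups each), 18 had a rat whose gap to the nearest of the others took more than Dixon's 95% share of the range. Chance flags about 1 in 20 groups, which is more than were found. Among CAF-fed rats these were as follows. Ranbp10 was 10.42 in CAF-fed LEW rat 3 (the highest; next 10.27). P2rx7 was 6.30 in CAF-fed LEW rat 1 (the lowest; next 6.39). Apob was 5.34 in CAF-fed WKY rat 5 (the lowest; next 5.48). Serpinh1 was 5.89 in CAF-fed WKY rat 3 (the lowest; next 6.10). Fads2 was 7.95 in CAF-fed LEW rat 2 (the lowest; next 8.39). Mpeg1 was 9.03 in CAF-fed WKY rat 3 (the lowest; next 9.51). Ppbp was 11.26 in CAF-fed WKY rat 1 (the lowest; next 11.75). Acss2 was 9.30 in CAF-fed LEW rat 2 (the highest; next 8.63). Plk3 was 10.18 in CAF-fed LEW rat 5 (the highest; next 9.52). The score of heat shock genes was 0.54 in CAF-fed LEW rat 2 (the highest; next -0.13). The score of cholesterol synthesis and uptake was -0.11 in CAF-fed WKY rat 3 (the lowest; next -0.03). The score of insulin signalling and nutrient sensing was 0.0129 in CAF-fed WKY rat 4 (the highest; next -0.00506). Among STD-fed rats these were as follows. Slc12a7 was 11.45 in STD-fed WKY rat 5 (the lowest; next 11.52). Nutm1 was 6.03 in STD-fed WKY rat 5 (the highest; next 5.84). Phf23 was 9.88 in STD-fed WKY rat 2 (the highest; next 9.73). Plk3 was 10.69 in STD-fed WKY rat 4 (the highest; next 10.37). The score of heat shock genes was 0.38 in STD-fed WKY rat 1 (the highest; next -0.01). The score of insulin signalling and nutrient sensing was 0.0598 in STD-fed LEW rat 4 (the highest; next 0.0107). CAF-fed WKY rat 3 was lowest for Serpinh1, Mpeg1 and the score of cholesterol genes, and CAF-fed LEW rat 2 was at an end of its group for Fads2, Acss2 and the heat shock score.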

How the results depend on the processing

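For both strains together, no transcript passed an adjusted p of 0.05 in any setting but 2, named here (limma, smallest adjusted p 0.0507 with arrays centred on the median, 0.229 after quantile normalisation, 0.0855 without dim probe sets and 0.269 with the monocyte score as a covariate). With the heat shock score as a covariate 1 unnamed transcript was lower (log2 fold change -0.22, adjusted p = 0.0322). Leaving out 1 rat gave 0 to 1 higher and 0 to 1 lower transcripts, the 1 each without STD-fed WKY rat 2 (0.46 and -0.33, adjusted p = 0.0491, unnamed). In the comparison within WKY rats it gave 0 to 1, the 1 without CAF-fed WKY rat 4, and within LEW rats and for the interaction 0 to 0. At an unadjusted P under 0.01, the 231 higher and 369 lower transcripts became 356 higher with the erythroid score as a covariate, 199 lower without dim probe sets, 138 higher and 147 lower in LEW arrays only, and 408 higher in WKY arrays only. They ran from 159 to 325 higher and from 288 to 425 lower when 1 rat was left out, and the correlation of the strains' effects from 0.000900 to 0.171. The cause of these shifts was not tested.

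Of 3518 values of 101 named genes under the alternatives, 3509 kept their direction and 0 passed the adjusted threshold. The 9 of opposite direction all belonged to Acss2, at -0.0262 with array weights, -0.192 in LEW arrays only and -0.0390 to 0.0600 when 1 rat was left out. Members of lists at an unadjusted P under 0.05 ran from 11 to 16 for interferon-stimulated, 5 to 10 for immediate-early, 3 to 6 for monocyte, 3 to 9 for mitosis, 1 to 13 for erythroid and 0 to 7 for platelet genes when 1 rat was left out. With the erythroid or the neutrophil score as a covariate, 10 monocyte genes were lower.

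Whether samples of the same replicate number were paired or handled together could not be settled. The B cell score fell in order from rat 1 to rat 5 in LEW rats on STD (0.118 to -0.245) and on CAF (0.138 to -0.231). It did not fall in that order in WKY rats. Rat 1 had the highest MHC class II score in every group. These scores were picked after the values were seen, and their cause was not tested. The main fit had no term for replicate number. Of 30 pairs of same number, 9 had deviations correlated above 0.1 (-0.177 to 0.430, median 0.0573, against -0.0192 for different numbers). With the replicate number as a block within each strain 0 transcripts were called (smallest adjusted p = 0.315), as with a block shared by the 4 groups (0.144). Dim signals, close to background, limit what can be seen of a change.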
